A study of Mus musculus with 12 samples.

Results

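The 44 collagen genes of the deposited tables were described in whole mouse kidney, with the fibrillar collagens set against the collagens of basement membranes. Members were every gene symbol made of Col, a number, a and a number, taken with the transcript of the highest total count, which gave 44 of 24421 symbols. The rule uses symbols alone and not their levels, although earlier results of these data were known when it was set. They were grouped by the structure their proteins form, as 11 fibrillar genes, 6 type IV genes of basement membranes, 2 multiplexins, 7 beaded filament genes, 3 short chain genes, 9 fibril-associated genes (FACIT), 4 transmembrane genes, the anchoring fibril gene Col7a1 and Col26a1.

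Collagens are proteins of the extracellular matrix in which chains wind into a triple helix. Fibrillar collagens form the banded fibers of the interstitium, made in kidney mainly by fibroblasts and pericytes and laid down in excess in fibrosis, whereas type IV collagen forms the sheet-like network under epithelium and endothelium. Col4a1 and Col4a2 chains occur together in almost all basement membranes, while Col4a3, Col4a4 and Col4a5 chains assemble in the mature glomerular basement membrane and part of the tubular ones, and defects in them cause Alport syndrome.

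The 12 libraries came from kidneys of male C57BL/6 mice at 6 weeks of age, 3 in each of 4 groups. WT mice and mice with a whole-body deletion of Tet2, which encodes a methylcytosine dioxygenase, were sampled without an operation (baseline). Other WT and Tet2-/- mice were sampled 24 h after renal ischemia-reperfusion (IR), in which the pedicle of the right kidney was clamped for 60 min and the left kidney was removed, so a difference between IR and baseline kidneys also holds the operation and the nephrectomy. Total counts per library ranged from 51007366 to 107969888. Levels are given in FPKM, counts scaled to transcript length and library size, and differences as log2 fold changes with their standard error (SE). A gene is said to be called, or to have risen or fallen, where edgeR's quasi-likelihood test gave an adjusted p under 0.05 and its log2 fold change exceeded 1 in size.

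Tet2 itself had an FPKM of 9.15, 6.25 and 7.33 in WT baseline replicates 1 to 3 and of 9.24, 16.6 and 10.3 in the baseline libraries labelled Tet2-/-, where the log2 fold change was 0.76 (SE 0.24, edgeR quasi-likelihood adjusted p = 0.321). After IR it was 9.34, 3.97 and 3.86 in WT and 2.64, 3.20 and 1.76 in the libraries labelled Tet2-/-, all of them lower (-1.28, SE 0.36, edgeR quasi-likelihood adjusted p = 0.0690). The baseline labels were therefore not borne out by the level of the transcript, the part of it that the allele lacks was not analysed here, and each genotype difference below is one between libraries labelled Tet2-/- and WT. Kidney tubule markers (7 genes), whose sum is mostly that of Kap, were present in every library, at 34392 to 52995 summed FPKM in WT baseline, 51096 to 52960 in baseline libraries labelled Tet2-/-, 22938 to 26190 in WT IR and 17064 to 23296 in IR libraries labelled Tet2-/-, where 4 of 7 fell against baseline and 2 of 7 were lower than in WT. None of the 7 was called for IR in WT mice, and Umod overlapped between baseline and IR in both genotypes. Neutrophil markers (5 genes) summed to at most 2.73 FPKM at baseline, 3.99 to 9.28 FPKM in WT IR and 73.8 to 130 FPKM in IR libraries labelled Tet2-/-, with 5 of 5 called higher against baseline and 4 of 5 against WT. Macrophage markers (5 genes) summed to 47.6 to 72.8 FPKM in IR libraries labelled Tet2-/- and at most 33.4 FPKM in the other groups, but the members differed in direction, with 3 called higher and 1 lower for IR in mice labelled Tet2-/-. Csf1r had a mean of 23.99 FPKM at baseline and 4.53 FPKM after IR in those mice, and of 19.2 and 8.81 FPKM in WT. Adipocyte markers (9 genes), whose sum is mostly that of Fabp4, summed to between 59.8 and 289 FPKM in WT baseline kidneys. In the IR libraries labelled Tet2-/- they summed to between 81.4 and 603 FPKM, and in the other groups to at most 72.8 FPKM. Replicate 3 was the highest of both former groups. The mean of log2(FPKM + 0.1) over the 9 genes was -1.21, 1.53 and 3.03 in WT baseline replicates 1 to 3. In IR replicates 1 to 3 labelled Tet2-/- it was -0.72, -1.55 and 3.10. It was positive in no library but WT baseline replicates 2 and 3 and IR replicate 3 labelled Tet2-/-. WT IR replicate 3 was the lowest library for markers of endothelium (12.1 FPKM), fibroblasts (3.46 FPKM), podocytes (3.43 FPKM) and pericytes (12.3 FPKM). The part of these differences in the collagen results was not tested, and in whole kidney fewer cells of a type and less RNA per cell cannot be told apart.

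At baseline no collagen gene rose or fell between the genotypes, where 0.0124% of all genes were called. After IR, Col6a6, Col19a1 and Col23a1, of 35 tested, were lower in the libraries labelled Tet2-/- than in WT, where 3.85% of all genes were lower. Within WT mice Col6a6 and Col19a1, of 37 tested, fell after IR, where 0.887% of all genes fell and 1.46% rose. Within mice labelled Tet2-/- 10 of 37 genes fell and 4 rose, where 11.6% of all genes fell and 12.7% rose. The common fibrillar genes Col1a1, Col1a2 and Col3a1 were not called with all libraries in, while within type IV collagen Col4a1 and Col4a2 lay on the opposite side of Col4a3 and Col4a4 in the IR comparisons.

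Start regions are shown for type IV chains that are transcribed head to head and for a pair of genes that fell after IR in both genotypes. Col4a1 and Col4a2 lie head to head on chromosome 8 of mm9, with starts 21 bases apart and the first 22 bases of the transcripts shared on opposite strands. The starts of Col4a3 and Col4a4 lie 72 bases apart on chromosome 1, and those of Col4a5 and Col4a6 lie 1343 bases apart on chromosome X. The windows below run from 250 bases before to 50 bases after the start, 5′ to 3′ along the gene, and are taken from RefSeq with coordinates of GRCm38.p6. They lie at chr8:11312777-11313076 (Col4a1, minus strand), chr8:11312555-11312854 (Col4a2, plus), chr1:82586800-82587099 (Col4a4, minus), chr9:105828036-105828335 (Col6a6, minus) and chr1:24587388-24587687 (Col19a1, minus). Col6a6 and Col19a1 are the genes that fell in both genotypes, and no window for Col4a3 was used here. Capitals mark the motifs searched on both strands, the CCAAT box (CCAAT), the GC box (GGGCGG) and the TATA box (TATAAA).
Col4a1: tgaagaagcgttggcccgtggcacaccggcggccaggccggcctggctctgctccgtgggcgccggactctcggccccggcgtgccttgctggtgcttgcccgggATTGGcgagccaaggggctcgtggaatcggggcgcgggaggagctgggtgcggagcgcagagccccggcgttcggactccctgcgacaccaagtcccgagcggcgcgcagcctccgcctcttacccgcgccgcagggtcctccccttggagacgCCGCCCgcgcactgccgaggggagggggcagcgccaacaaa
Col4a2: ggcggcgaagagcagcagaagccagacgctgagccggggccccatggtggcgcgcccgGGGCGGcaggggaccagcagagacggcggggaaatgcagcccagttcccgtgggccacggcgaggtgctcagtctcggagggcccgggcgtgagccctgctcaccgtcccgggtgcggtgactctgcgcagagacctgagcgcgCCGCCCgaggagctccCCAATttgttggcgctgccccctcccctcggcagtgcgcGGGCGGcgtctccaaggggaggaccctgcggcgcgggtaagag
Col4a4: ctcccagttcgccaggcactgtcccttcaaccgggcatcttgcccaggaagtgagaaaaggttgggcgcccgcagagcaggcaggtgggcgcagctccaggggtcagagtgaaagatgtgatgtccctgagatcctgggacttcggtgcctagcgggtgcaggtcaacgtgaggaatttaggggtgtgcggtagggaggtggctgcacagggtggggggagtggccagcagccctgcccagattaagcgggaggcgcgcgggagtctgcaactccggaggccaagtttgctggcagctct
Col6a6: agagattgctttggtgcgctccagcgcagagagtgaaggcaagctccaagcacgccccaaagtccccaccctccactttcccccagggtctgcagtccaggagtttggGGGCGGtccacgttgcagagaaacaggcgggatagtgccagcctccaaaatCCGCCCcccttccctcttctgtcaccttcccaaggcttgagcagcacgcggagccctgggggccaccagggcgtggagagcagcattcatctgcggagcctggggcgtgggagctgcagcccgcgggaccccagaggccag
Col19a1: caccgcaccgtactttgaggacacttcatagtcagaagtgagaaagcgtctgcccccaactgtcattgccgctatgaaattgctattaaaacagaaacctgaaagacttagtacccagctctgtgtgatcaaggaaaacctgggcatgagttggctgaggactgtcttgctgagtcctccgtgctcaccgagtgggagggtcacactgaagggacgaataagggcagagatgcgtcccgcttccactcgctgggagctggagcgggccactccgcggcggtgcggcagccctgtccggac

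The windows of Col4a1 and Col4a2 share 78 bases, and 1 GC box lies in the shared stretch of both. Col4a1 held 1 CCAAT box and 1 GC box, Col4a2 held 1 CCAAT box and 3 GC boxes, Col6a6 held 2 GC boxes, and none of the letters searched were found in the windows of Col4a4 and Col19a1. Of 44 members 35 had a window, 13 of them with CCAAT, 22 with GGGCGG and 5 with TATAAA. Among all 32851 windows, 37.4% held CCAAT, 35.7% held GGGCGG and 13.6% held TATAAA. These shares count single windows, whereas a member was counted if any of its windows held the motif, so the measures are not alike.

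Averaged over the 12 libraries, 21 members reached 1 FPKM and 11 lay under 0.05 FPKM. The order of the highest levels differed by group, with Col4a3 highest in WT baseline kidneys and Col18a1 (79.7 FPKM) highest in IR libraries labelled Tet2-/-. WT baseline kidneys had 22.0 ± 8.97 FPKM (SD, n = 3) for Col4a1 and 30.7 ± 2.60 FPKM (SD, n = 3) for Col4a3. Col1a1 had 2.25 ± 1.94 FPKM (SD, n = 3) in the same kidneys. Among genes known from cartilage collagens, Col2a1, Col9a1, Col9a2 and Col10a1 stayed at or under 0.062 FPKM in every library, while Col9a3 reached 0.138, Col11a1 0.118 and Col11a2 0.483 FPKM. Of 4 cartilage markers Acan and Matn1 were at most 0.002 FPKM, Comp ranged from 0.054 to 1.476 FPKM and Sox9, which kidney epithelium also expresses, from 0.045 to 5.43 FPKM, highest in the IR libraries labelled Tet2-/-.

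The genotype comparison at baseline asked whether the deletion changed the unchallenged kidney. Of 38 collagen genes tested none was called by edgeR's quasi-likelihood test, where 0.0124% of all genes tested were called. DESeq2 called none of them either, against 23 higher and 298 lower among all 16086 genes. An unadjusted p under 0.05 in edgeR was given to 4 of the 38 and to 1891 of the 16086 genes, similar shares. The 4 were Col4a4, Col4a6, Col17a1 and Col25a1. Col4a4 had an FPKM of 18.6, 22.7 and 23.5 in WT baseline replicates 1 to 3 and of 12.3, 17.0 and 15.2 in the libraries labelled Tet2-/-. Each library labelled Tet2-/- thus lay below each WT library, at a log2 fold change of -0.45 (SE 0.16, edgeR quasi-likelihood adjusted p = 0.368). The median log2 fold change was 0.26 over 10 fibrillar genes, -0.20 over 6 type IV genes and 0.00 over all genes. Leaving out 1 library moved the fibrillar median between -0.018 (without WT baseline replicate 3) and 0.74 (without WT baseline replicate 2), and the type IV median between -0.30 and -0.039.

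The other comparisons share libraries with each other, each group being used in more than 1 of them, so their values are set side by side and are not independent. After IR, 3 of 35 collagen genes tested (8.57%) were called between the genotypes, 3 lower and 0 higher, against 6.15% of all genes, 3.85% lower and 2.3% higher. DESeq2 gave 4 lower and 1 higher, and scaling by library size without TMM gave 3 lower and 1 higher. Over all 16186 genes the calls were 623 lower and 373 higher in the edgeR fit, 872 lower and 770 higher with DESeq2, and 493 lower and 427 higher with library sizes alone. The IR comparison in WT mice called 2 of 37 (5.41%), 2 lower and 0 higher, against 2.35% of all genes, 0.887% lower and 1.46% higher. With same-numbered libraries paired by a replicate block it called 4 lower and 1 higher, adding Col11a1, Col4a6 and Col8a1, while the calls over all 16015 genes went from 234 higher and 142 lower to 428 higher and 559 lower. No call was left when only WT baseline replicate 1 was kept of the WT baseline libraries, a setting that leaves 1 library in that group, assumed to vary like the others, and in which 0 genes were called higher and 1 lower among all 16526. Col6a6 had a log2 fold change of -2.57 and Col19a1 of -1.61 there.

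In mice labelled Tet2-/- the IR comparison called 14 of 37 collagen genes (37.8%), 10 lower and 4 higher, against 24.3% of all genes, 11.6% lower and 12.7% higher. Library sizes alone gave 6 lower and 5 higher, a scaling that moved the median log2 fold change of all genes from 0.04 to 0.27 and the calls over all genes from 1896 lower and 2078 higher to 1397 lower and 2860 higher. Without the IR replicate 2 of these mice 17 genes were called lower, adding Col1a2, Col6a2, Col6a3, Col8a2, Col15a1, Col16a1 and Col26a1, while over all genes 2034 were called lower and 1973 higher. The replicate block added Col6a3, Col8a2 and Col26a1, while over all genes 2056 were called lower and 2137 higher. A direct test of whether IR acted differently in the genotypes, the interaction over all 12 libraries, called 3 of 38 (7.89%), 3 lower and 0 higher, against 9.18% of all genes, 5.39% lower and 3.79% higher. With DESeq2 the interaction gave 4 lower and 1 higher, and with library sizes alone 3 lower and 1 higher. Over all genes the interaction went from 902 lower and 634 higher to 1600 lower and 1210 higher with DESeq2, and to 700 lower and 1129 higher with library sizes alone, where the balance of direction turned. Without the IR replicate 2 labelled Tet2-/- the interaction called 5 genes, adding Col12a1 and Col26a1, while over all 16904 genes 904 were called lower and 425 higher.

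**Figure D1:**
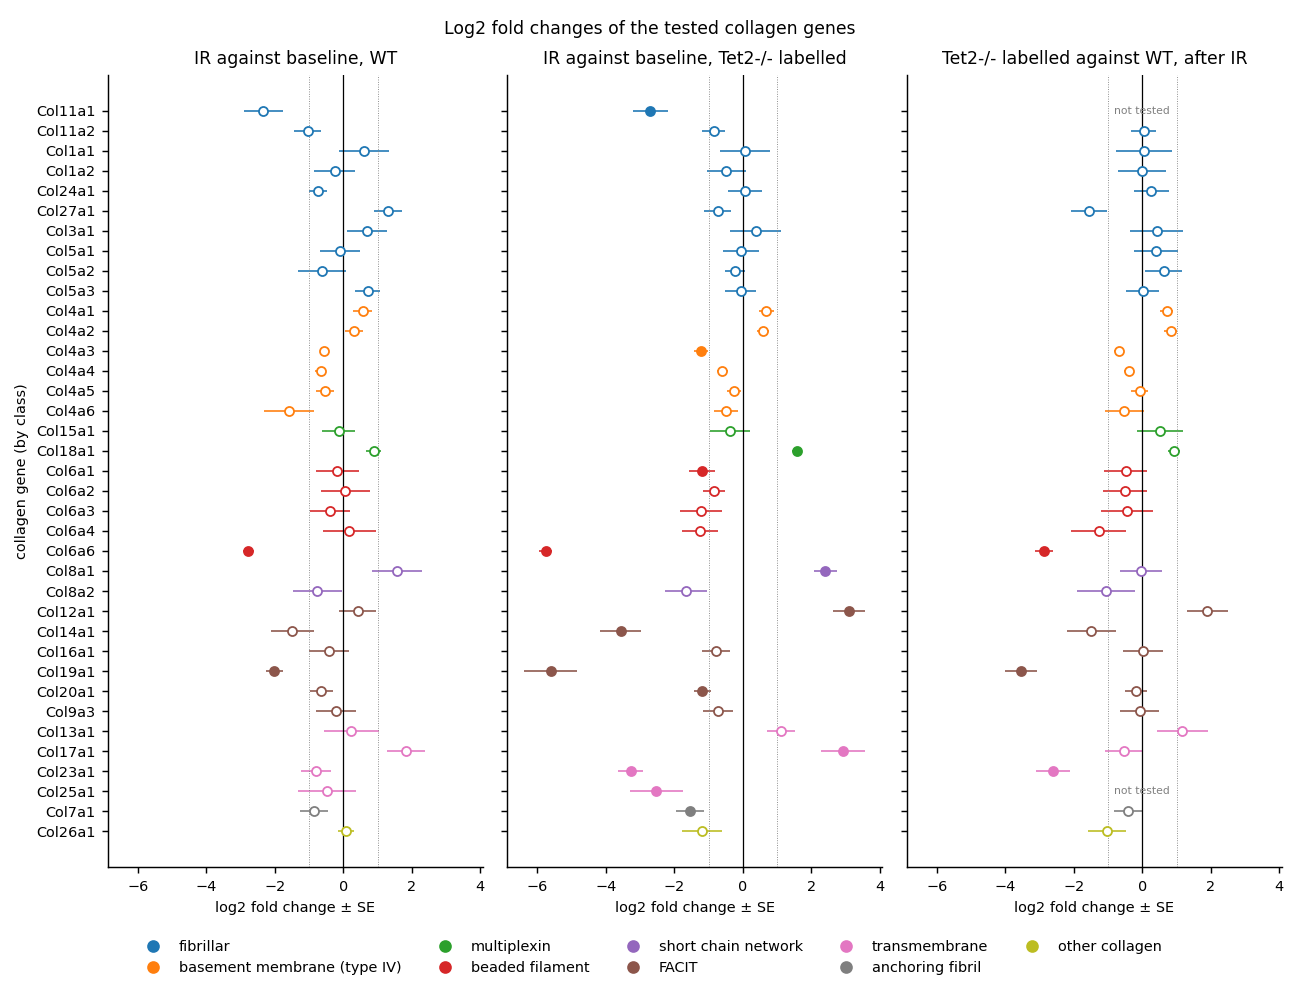
Log2 fold changes of the tested collagen genes, ordered by class, in 3 comparisons of 6 libraries each (x axis, log2 fold change; bars, ± SE; filled points, called genes; dotted lines at 1 and -1). Filled points number 2 in WT mice, 14 in mice labelled Tet2-/- and 3 in the genotype comparison after IR.

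Type IV collagen split by chain. Col4a1 (NM_009931), which spans 11198423 to 11312826 of chromosome 8 in mm9 on the minus strand, had an FPKM of 16.9, 32.4 and 16.8 in WT baseline replicates 1 to 3 and of 35.3, 40.7 and 26.3 in WT IR replicates 1 to 3. In the libraries labelled Tet2-/- it had 24.5, 37.5 and 30.3 FPKM at baseline and 63.3, 70.6 and 44.8 FPKM after IR. All 3 IR libraries labelled Tet2-/- were above all other libraries, whereas the WT groups overlapped, with IR higher in each same-numbered WT pair. The log2 fold change of IR in mice labelled Tet2-/- was 0.68 (SE 0.21, edgeR quasi-likelihood adjusted p = 0.0355), and that between genotypes after IR was 0.71 (SE 0.19, adjusted p = 0.0632). For IR in WT mice it was 0.56 (SE 0.28, edgeR quasi-likelihood adjusted p = 0.281), and the interaction was 0.16 (SE 0.37, adjusted p = 0.818), so that no difference in the IR effect between genotypes was detected.
Col4a2 (NM_009932, chromosome 8, 11312805 to 11449287, plus strand), its partner chain, had 14.2, 24.8 and 14.1 FPKM in WT baseline and 26.0, 26.7 and 16.0 FPKM in WT IR replicates 1 to 3. The libraries labelled Tet2-/- had 21.2, 27.3 and 23.2 FPKM at baseline and 46.7, 48.9 and 34.2 FPKM after IR. Again these IR libraries were above all others, and WT IR was higher in each same-numbered WT pair. Markers of pericytes and smooth muscle (6 genes) summed to 38.1 to 57.7 FPKM at baseline and 80.3 to 137 FPKM after IR in mice labelled Tet2-/-, with 1 of 6 called higher, and to 12.3 to 89.1 FPKM in WT IR. Endothelium markers (6 genes) summed to 52.3 to 106 FPKM in IR libraries labelled Tet2-/- and 12.1 to 62.5 FPKM in WT IR, with none called, and the part of both lists in the Col4a1 and Col4a2 values was not tested. The log2 fold changes were 0.59 (SE 0.17, edgeR quasi-likelihood adjusted p = 0.0262) for IR in mice labelled Tet2-/- and 0.83 (SE 0.20, adjusted p = 0.0447) between genotypes after IR, both under the fold threshold. For IR in WT mice it was 0.30 (SE 0.26, edgeR quasi-likelihood adjusted p = 0.533), with an interaction of 0.33 (SE 0.33, adjusted p = 0.548).

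Col4a3 (NM_007734, chromosome 1, 82583496 to 82718634, plus strand), a chain of the glomerular basement membrane, moved the other way. Its FPKM was 33.3, 30.6 and 28.1 in WT baseline and 21.1, 25.2 and 19.2 in WT IR replicates 1 to 3. In the libraries labelled Tet2-/- it was 21.4, 36.5 and 26.4 at baseline and 14.6, 15.1 and 13.7 after IR. The IR libraries were below the baseline libraries in each genotype, and those labelled Tet2-/- were below all others. The gene fell after IR in mice labelled Tet2-/- (log2 fold change -1.22, SE 0.21, edgeR quasi-likelihood adjusted p = 0.00316). This call rests on the fold threshold, since without the baseline replicate 2 of these mice the log2 fold change was -0.99 (edgeR adjusted p = 0.00840), and with library sizes alone it was also -0.99. In WT mice the change was -0.56 (SE 0.13, adjusted p = 0.0776) and between genotypes after IR it was -0.69 (SE 0.13, adjusted p = 0.0236), both from the same edgeR test.
Col4a4 (NM_007735, chromosome 1, 82447298 to 82583424, minus strand), which shares its start region with Col4a3, had 12.5, 17.0 and 13.4 FPKM in WT IR replicates 1 to 3 and 12.5, 12.5 and 10.3 FPKM in the IR libraries labelled Tet2-/-. Beside the baseline values above, WT IR libraries were below WT baseline libraries, and the groups labelled Tet2-/- overlapped. The log2 fold change of IR was -0.66 in WT mice (SE 0.16, edgeR quasi-likelihood adjusted p = 0.0794) and -0.60 in mice labelled Tet2-/- (SE 0.16, adjusted p = 0.0178). Col4a1 and Col4a2 kept a positive and Col4a3 and Col4a4 a negative log2 fold change in all 16 alternatives between genotypes after IR and in all 15 of IR in mice labelled Tet2-/-. Alternatives were followed only for genes with an unadjusted edgeR p under 0.05 and use mostly the same libraries, so a kept sign was likely beforehand.

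Col4a5, the third chain of the glomerular network, ranged from 3.80 to 9.95 FPKM over the 12 libraries. Col4a6, found in other basement membranes, ranged from 0.139 to 2.49 FPKM, with its highest value in WT baseline replicate 2. All 4 groups overlapped for Col4a5, which was not called, and Col4a6 was called lower for IR in WT mice with the replicate block alone. Podocytes make the mature glomerular network. All 6 podocyte markers rose after IR in mice labelled Tet2-/-, where 12.7% of all genes rose. They summed to 14.0 to 19.3 FPKM at baseline and 43.6 to 89.2 FPKM after IR, while Col4a3 fell in the same libraries. Of 7 kidney tubule markers 4 fell in the same comparison (median log2 fold change of the 7 -1.72), where 11.6% of all genes fell. The part of either list in the type IV values was not tested.

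**Figure D2:**
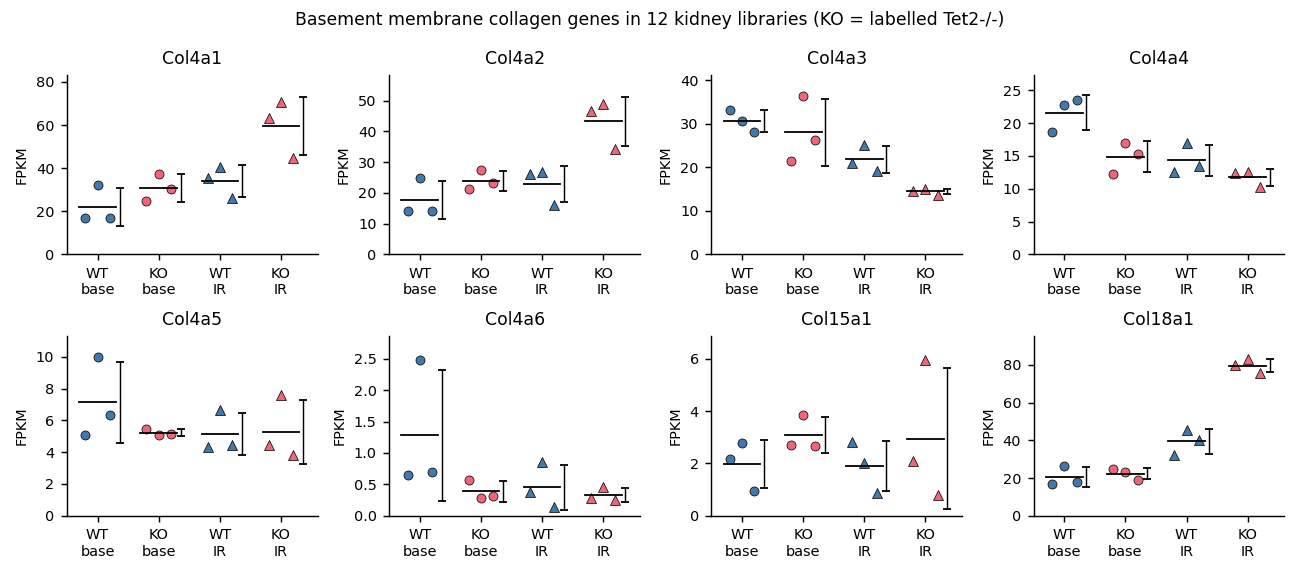
FPKM (y axis, linear) of the 6 type IV genes and the multiplexins Col15a1 and Col18a1 in 12 libraries by group (circles, baseline; triangles, IR; blue, WT; red, labelled Tet2-/-; line, mean; bar, SD, n = 3). Col4a1, Col4a2 and Col18a1 were highest and Col4a3 lowest in the IR libraries labelled Tet2-/-.

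The multiplexins are collagens of the basement membrane zone, and the C-terminal part of Col18a1 protein is the source of endostatin. Col18a1 (NM_009929, chromosome 10, 76514924 to 76629275, minus strand) had 17.1, 26.4 and 17.8 FPKM in WT baseline and 32.1, 45.7 and 40.3 FPKM in WT IR replicates 1 to 3. The libraries labelled Tet2-/- had 24.7, 23.2 and 19.1 FPKM at baseline and 79.9, 83.3 and 75.9 FPKM after IR. Baseline libraries of both genotypes were below WT IR libraries, which were below the IR libraries labelled Tet2-/-, with no overlap. Col18a1 rose 2.99-fold after IR in mice labelled Tet2-/- (log2 fold change 1.58, SE 0.15, edgeR quasi-likelihood adjusted p = 0.000304) and kept this call in all 15 alternatives. The log2 fold change of IR in WT mice was 0.89 (SE 0.22, adjusted p = 0.0780), that between genotypes after IR was 0.92 (SE 0.18, adjusted p = 0.0272), and the interaction was 0.73 (SE 0.26, adjusted p = 0.104), from the same edgeR test. The genotype difference passed the fold threshold with library sizes alone (1.02) and with limma on log2(FPKM + 1) (1.01) and on log2(FPKM + 0.1) (1.03), and the interaction was called with limma on log2(FPKM + 1) (adjusted p = 0.0495). Col15a1 ranged from 0.781 to 5.96 FPKM, with both ends among the IR libraries labelled Tet2-/-, and was not called.

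The common fibrillar collagens varied widely within groups and were not called. Col1a1, a chain of the main fiber-forming collagen, had 1.58, 4.42 and 0.726 FPKM in WT baseline and 6.005, 3.729 and 1.159 FPKM in WT IR replicates 1 to 3. The libraries labelled Tet2-/- had 1.70, 4.48 and 3.17 FPKM at baseline and 1.999, 9.264 and 1.002 FPKM after IR. The groups overlapped in every comparison, and replicate 3 was the lowest library of 3 of the groups. Col3a1, the fibrillar collagen of distensible tissue, had 4.51, 9.63 and 2.41 FPKM in WT baseline and 14.1, 10.7 and 3.44 FPKM in WT IR replicates 1 to 3. In the libraries labelled Tet2-/- Col3a1 had 3.82, 12.9 and 8.71 FPKM at baseline and 9.54, 28.8 and 2.78 FPKM after IR, so that the IR group held both the highest and nearly the lowest of the 12 libraries. Col1a2 ranged from 2.37 to 15.2 FPKM, Col5a1 from 0.381 to 2.72 FPKM and Col5a2 from 0.271 to 2.46 FPKM, and none of these 5 genes was called with all libraries in. Col1a2 was called lower for IR in mice labelled Tet2-/- once their IR replicate 2 was left out.
The 5 genes summed to 28.5 ± 26.3 FPKM (SD, n = 3) in the IR libraries labelled Tet2-/- and to 22.1 ± 13.5 FPKM (SD, n = 3) in WT IR libraries. Within a group the highest library exceeded the lowest 4.16-fold in WT baseline, 2.25-fold in baseline libraries labelled Tet2-/-, 4.51-fold in WT IR and 7.04-fold in IR libraries labelled Tet2-/-. Fibroblast markers (6 genes, Dcn and Lum also being listed as matrix partners) varied in the same libraries, from 3.46 to 26.8 summed FPKM in WT IR and from 7.70 to 20.4 FPKM in the IR libraries labelled Tet2-/-, with replicate 3 lowest in both. None of the 6 was called between genotypes after IR. The part of these markers in the fibrillar values was not tested.

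**Figure D3:**
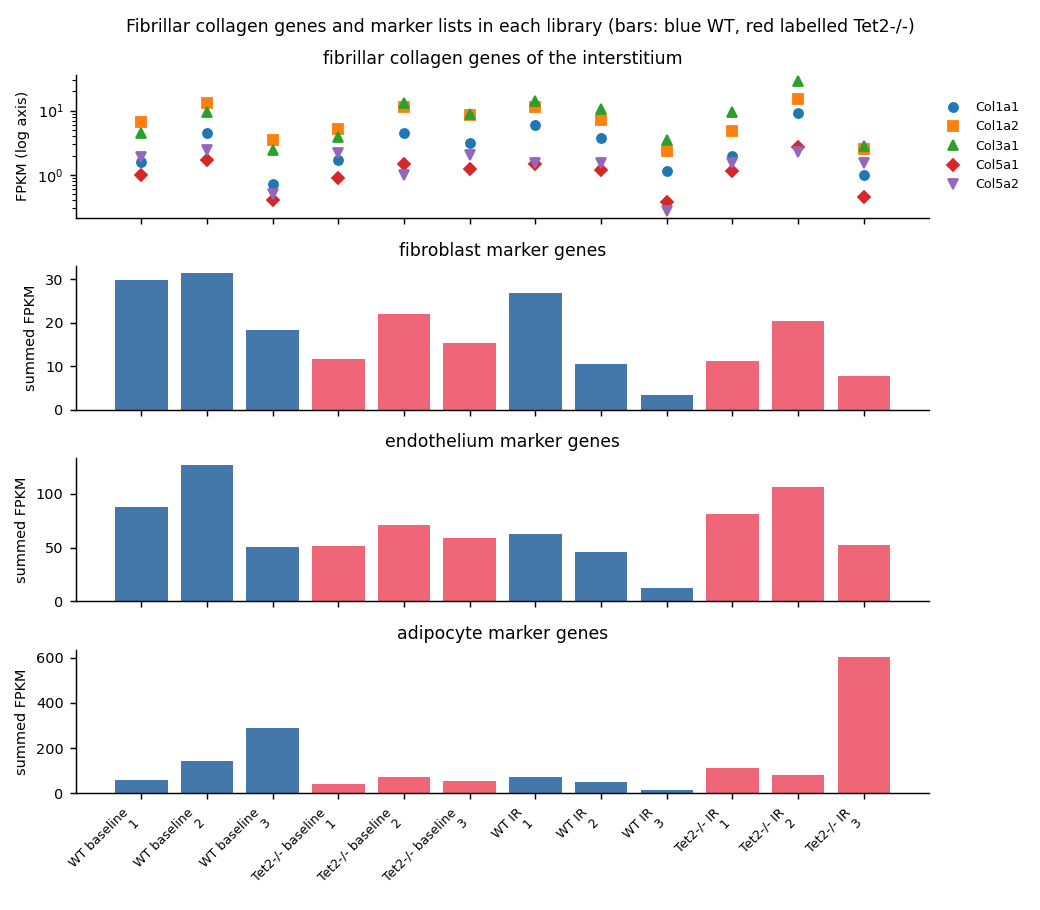
FPKM of 5 fibrillar collagen genes (top, log axis) and summed FPKM of fibroblast, endothelium and adipocyte markers (bars from 0) in each of the 12 libraries (blue, WT; red, labelled Tet2-/-). Replicate 3 of both IR groups is the lowest of its group for Col1a1, Col1a2, Col3a1, Col5a1 and the fibroblast markers, and replicate 3 of the IR group labelled Tet2-/- reaches 603 FPKM for adipocyte markers.

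Other fibrillar genes differed from these. Col27a1, which was not called and is named after its values were seen because it made up much of the class's summed level, had 15.3, 17.2 and 13.5 FPKM in WT baseline and 36.1, 19.5 and 60.8 FPKM in WT IR replicates 1 to 3. In the libraries labelled Tet2-/- Col27a1 had 29.4, 14.7 and 16.1 FPKM at baseline and 19.8, 17.2 and 6.92 FPKM after IR. WT IR libraries were above WT baseline libraries, at a log2 fold change of 1.31 (SE 0.41, edgeR quasi-likelihood adjusted p = 0.130), and the genotypes overlapped after IR. Between genotypes after IR it was -1.57 (SE 0.53, edgeR quasi-likelihood adjusted p = 0.104) and in the interaction -2.00 (SE 0.63, adjusted p = 0.0700). DESeq2 called all 3 of these (adjusted p = 0.0130, 0.0103 and 0.0102), and a single edgeR fit over 12 libraries called the genotype difference (adjusted p = 0.0358). Col11a1, known from cartilage, was low at 43.5 to 63.5 counts per baseline library of either genotype and at 3 to 20 counts per IR library. It fell after IR in mice labelled Tet2-/- (log2 fold change -2.70, SE 0.50, edgeR quasi-likelihood adjusted p = 0.00450). In WT mice the log2 fold change was -2.34 (SE 0.57, adjusted p = 0.0781), and with the replicate block it was -2.50 (adjusted p = 0.0340), from the same edgeR test.

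The summed FPKM of the 11 fibrillar genes was 0.336 ± 0.0840 (SD, n = 3) of that of the 6 type IV genes in WT baseline kidneys and 0.435 ± 0.0768 (SD, n = 3) in unoperated kidneys labelled Tet2-/-. After IR the ratio was 0.657 ± 0.249 (SD, n = 3) for WT and 0.308 ± 0.176 (SD, n = 3) for libraries labelled Tet2-/-, with overlap between these groups. Without Col27a1 and Col4a1, the member of each class with the highest mean, the ratio after IR was 0.347 ± 0.1999 (SD, n = 3) for WT and 0.368 ± 0.2999 (SD, n = 3) for libraries labelled Tet2-/-, so the order of the means turned. Median log2 fold changes after IR between genotypes were 0.05 for fibrillar and -0.23 for type IV genes, beside 0.04 for all genes. For IR they were -0.18 and -0.54 in WT mice, beside -0.03 for all genes, and -0.15 and -0.37 in mice labelled Tet2-/-, beside 0.04 for all genes. The type IV median lies between chains on opposite sides of 0, and leaving out 1 library moved it between -0.37 and 0.18 for the genotypes after IR. The fibrillar median moved between -0.58 (without IR replicate 2 labelled Tet2-/-) and 0.43 (without WT IR replicate 1) in that comparison. For IR it moved between -0.55 (without WT IR replicate 1) and 0.41 (without WT baseline replicate 2) in WT mice, and between -0.79 (without IR replicate 2) and -0.061 (without IR replicate 1) in mice labelled Tet2-/-. The sign of the fibrillar median thus turned with the library left out in all of these but the last. No difference between the classes was tested.

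The ratio of Col4a1 to Col4a3 restates, library by library, the values of chains already seen on opposite sides of 0 and is given as a description. In FPKM it was 0.507 to 1.06 in WT baseline, 1.03 to 1.15 in baseline libraries labelled Tet2-/-, 1.37 to 1.67 in WT IR and 3.27 to 4.68 in IR libraries labelled Tet2-/-. IR libraries were above baseline libraries in each genotype, and the IR groups did not overlap. Col4a1 to Col4a2, the head-to-head pair, stayed between 1.16 and 1.64 in all 12 libraries. With 3 libraries against 3, an exact permutation test cannot give a two-sided p under 0.1, and none is given. The 6 type IV genes summed to 98.7 ± 18.8 FPKM (SD, n = 3) in WT IR and 135 ± 24.8 FPKM (SD, n = 3) in IR libraries labelled Tet2-/-, with overlap.

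**Figure D4:**
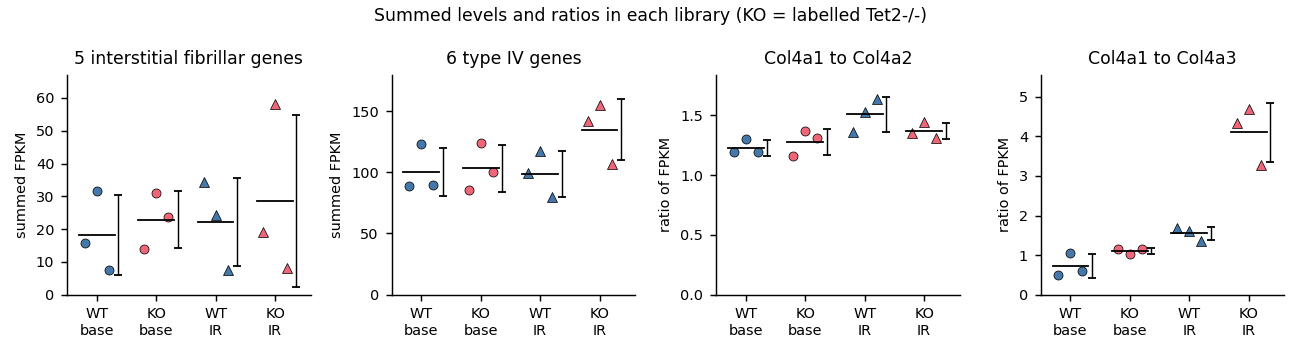
Summed FPKM of 5 interstitial fibrillar genes and of 6 type IV genes, and FPKM ratios of Col4a1 to Col4a2 and Col4a1 to Col4a3, in each library by group (all y axes from 0; line, mean; bar, SD, n = 3). The ratio of Col4a1 to Col4a3 is 3.27 or more in the IR libraries labelled Tet2-/- and 1.67 or less in all others.

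Col6a6 (NM_001102607, chromosome 9, 105591747 to 105730415, minus strand), a chain of beaded filaments, showed the clearest separation of groups. Its FPKM was 3.14, 3.51 and 4.24 in WT baseline and 3.21, 4.03 and 3.84 in baseline libraries labelled Tet2-/-. After IR it was 0.588, 0.606 and 0.479 in WT and 0.077, 0.087 and 0.080 in the libraries labelled Tet2-/-, where 53.5 to 79 counts were found. The baseline groups overlapped, every WT IR library was below them, and every IR library labelled Tet2-/- was below the WT IR libraries. Col6a6 fell 6.83-fold in WT mice (log2 fold change -2.77, SE 0.17, edgeR quasi-likelihood adjusted p = 0.00532) and 54.2-fold in mice labelled Tet2-/- (-5.76, SE 0.18, adjusted p = 3.4e-05). After IR it was 7.28-fold lower in libraries labelled Tet2-/- than in WT (-2.86, SE 0.26, adjusted p = 0.00989), and the interaction was -2.95 (SE 0.22, adjusted p = 0.000406), from the same test. Without replicate 3 of both IR groups, the libraries that stood apart in cell markers, the genotype difference was -2.96 (adjusted p = 0.0752) with 2 libraries a group. No collagen gene was called in that setting, nor were more than 2 of all 16458 genes, against 996 with all libraries, and the log2 fold changes were -3.57 for Col19a1 and -2.78 for Col23a1.
The other tested chains of this class lay on the same side of 0 in mice labelled Tet2-/-, at a smaller size. All 5 tested beaded filament genes had a negative log2 fold change for IR in these mice (median -1.22) and between genotypes after IR (median -0.50), with 2 and 1 of them called lower. Over all genes the median was 0.04 in both comparisons, with 11.6% and 3.85% called lower. For IR in WT mice 2 of the 5 were above 0. The 6 fibroblast markers had a median log2 fold change of -0.90 for IR in mice labelled Tet2-/-, -0.85 in WT mice and -0.21 between genotypes after IR, with none called, and their part in these values was not tested. Col6a1, Col6a2 and Col6a3, which form the common type VI heterotrimer, had in the IR libraries labelled Tet2-/- 1.94, 4.69 and 1.58 FPKM for Col6a1, and 1.36, 2.58 and 1.09 FPKM for Col6a2. Col6a3 ranged there from 0.275 to 2.19 FPKM. Replicate 2 was the highest of this group for all 3 genes. Col6a1 had 3.95, 6.29 and 5.03 FPKM in baseline libraries labelled Tet2-/- and fell after IR in these mice (log2 fold change -1.19, SE 0.37, edgeR quasi-likelihood adjusted p = 0.0355), although its groups overlapped. This call was lost in 8 of 15 alternatives. Among them were the fits without the baseline replicate 2 or 3 or the IR replicate 1 or 3 of these mice (adjusted p from edgeR 0.0606 to 0.105). The others were edgeR with library sizes alone (adjusted p = 0.0965) or in a single fit over 12 libraries (adjusted p = 0.121), and limma on log2(FPKM + 1) (adjusted p = 0.0982) and log2(FPKM + 0.1) (adjusted p = 0.0846).

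Col19a1 and Col14a1 belong to the fibril-associated collagens, which bind to the surface of fibers. Col19a1 (NM_007733, chromosome 1, 24264522 to 24594276, minus strand) had 0.375, 0.596 and 0.531 FPKM in WT baseline and 0.145, 0.134 and 0.110 FPKM in WT IR replicates 1 to 3. In the libraries labelled Tet2-/- it had 0.153, 0.899 and 0.395 FPKM at baseline and 0.006, 0.020 and 0.010 FPKM after IR, or 7, 26.5 and 10 counts. IR libraries were below baseline libraries in both genotypes with no overlap. Col19a1 fell in WT mice (log2 fold change -2.02, SE 0.25, edgeR quasi-likelihood adjusted p = 0.0137) and in mice labelled Tet2-/- (-5.60, SE 0.77, adjusted p = 0.00127). The genotype difference after IR was -3.55 (SE 0.48, adjusted p = 0.0127) and the interaction was -3.55 (SE 0.78, adjusted p = 0.0203). The call in WT mice was lost without WT baseline replicate 2 or 3 or WT IR replicate 2, which left Col6a6 as the only call there.
Col14a1 had 3.18, 4.35 and 3.76 FPKM in baseline libraries labelled Tet2-/- and 0.247, 0.805 and 0.121 FPKM after IR, with no overlap, and fell 11.9-fold (log2 fold change -3.57, SE 0.60, edgeR quasi-likelihood adjusted p = 0.00292). Leaving out 1 library moved this log2 fold change between -4.54 and -3.18. In WT libraries Col14a1 had 2.31, 4.79 and 0.951 FPKM at baseline and 1.73, 0.764 and 0.517 FPKM after IR, and these groups overlapped. The WT log2 fold change was -1.49 (SE 0.63, edgeR quasi-likelihood adjusted p = 0.216), and the interaction of -2.05 was not called. Col20a1 also fell after IR in mice labelled Tet2-/- (-1.18, SE 0.24, adjusted p = 0.00625).
Col12a1, a FACIT collagen of dense connective tissue, went the opposite way. Its FPKM was 0.234, 0.320 and 0.260 in baseline libraries labelled Tet2-/- and 4.31, 1.16 and 2.76 after IR, against 0.409, 0.808 and 0.296 in WT baseline and 1.06, 0.825 and 0.254 in WT IR. Each IR library labelled Tet2-/- was above each of the other 9. Col12a1 rose 8.56-fold after IR in mice labelled Tet2-/- (log2 fold change 3.10, SE 0.47, edgeR quasi-likelihood adjusted p = 0.00193). The genotype difference after IR was 1.90 (SE 0.61, adjusted p = 0.0923) and the interaction was 2.73 (SE 0.78, adjusted p = 0.0518), which passed with the replicate block (2.79, adjusted p = 0.0475), all from edgeR. DESeq2 called both (adjusted p = 0.00739 and 0.00536), and edgeR called the genotype difference in a single fit over 12 libraries (adjusted p = 0.0361) and the interaction with library sizes alone (adjusted p = 0.0448), with genes averaging under 1 FPKM left out (adjusted p = 0.0489) and without IR replicate 2 labelled Tet2-/- (adjusted p = 0.0292).

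Col23a1 (NM_153393, chromosome 11, 51103422 to 51397427, plus strand), a transmembrane collagen, had 0.823, 1.26 and 0.813 FPKM in WT baseline and 1.05, 0.411 and 0.310 FPKM in WT IR replicates 1 to 3. The libraries labelled Tet2-/- had 1.22, 0.672 and 0.605 FPKM at baseline and 0.098, 0.130 and 0.079 FPKM after IR. These IR libraries were below all others, whereas the WT groups overlapped. Col23a1 fell after IR in mice labelled Tet2-/- (log2 fold change -3.28, SE 0.36, edgeR quasi-likelihood adjusted p = 0.000520). It was lower after IR in libraries labelled Tet2-/- than in WT (-2.61, SE 0.50, adjusted p = 0.0266), and the interaction was -2.44 (SE 0.60, adjusted p = 0.0303). The genotype call was lost without WT IR replicate 1 (-1.93, adjusted p = 0.0597) and without any of the 3 IR libraries labelled Tet2-/- (adjusted p from edgeR 0.0627 to 0.0868).
Col17a1, the hemidesmosome collagen of epithelia, rose after IR in mice labelled Tet2-/- from 0.017, 0.002 and 0.006 FPKM to 0.055, 0.089 and 0.068 FPKM (log2 fold change 2.93, SE 0.64, edgeR quasi-likelihood adjusted p = 0.00895), at 2 to 7 counts per baseline library. In WT mice it had 0.026, 0.028 and 0.022 FPKM at baseline and 0.173, 0.082 and 0.037 FPKM after IR, without overlap, at a log2 fold change of 1.84 (SE 0.56, adjusted p = 0.122). Col25a1 passed the test in the other direction (-2.53, SE 0.77, adjusted p = 0.0318 from edgeR) at 1 to 29.5 counts per library, and its call was lost in 5 of the 6 fits that leave out 1 library.
Col8a1, a short chain collagen of vessels, rose after IR in mice labelled Tet2-/- from 0.201, 0.135 and 0.096 FPKM to 1.025, 1.051 and 0.668 FPKM (log2 fold change 2.41, SE 0.34, edgeR quasi-likelihood adjusted p = 0.00137). WT libraries had 0.154, 0.195 and 0.489 FPKM at baseline and 0.282, 0.635 and 1.60 FPKM after IR, higher in each same-numbered pair and overlapping between the groups. The WT log2 fold change was 1.56 (SE 0.74, edgeR quasi-likelihood adjusted p = 0.265), which was called with the replicate block, and the interaction was 0.88 (SE 0.86, adjusted p = 0.545). Col7a1, which forms the anchoring fibrils under epithelia, fell from 1.58, 0.868 and 0.672 FPKM to 0.433, 0.634 and 0.231 FPKM in mice labelled Tet2-/- (log2 fold change -1.54, SE 0.41, adjusted p = 0.0190). The baseline and IR values of Col7a1 did not overlap but came close, at 0.672 and 0.634 FPKM, and the call was lost without the baseline replicate 1 of these mice.

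**Figure D5:**
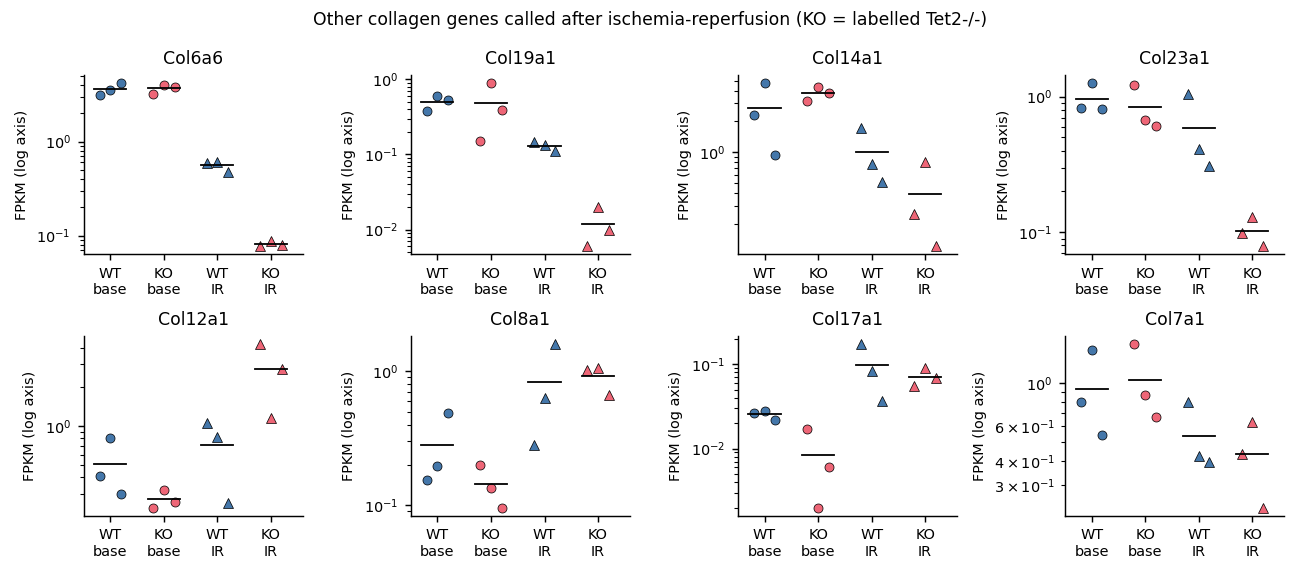
FPKM (y axis, log) of 8 collagen genes outside the fibrillar and type IV classes that were called after IR, in 12 libraries by group (circles, baseline; triangles, IR; blue, WT; red, labelled Tet2-/-; line, mean). Col6a6 falls from 3.14 FPKM or more at baseline to 0.087 FPKM or less in IR libraries labelled Tet2-/-, with WT IR libraries between them.

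Genes that make, bind and accompany collagen were counted from lists. Of 31 biosynthesis and crosslinking genes, 29 were tested at baseline and in WT mice after IR and none was called, nor was any tested gene of the receptor and matrix partner lists. Between genotypes after IR 2 of 29 were higher and 0 lower (2.3% and 3.85% of all genes), with a median log2 fold change of 0.33. Lox, the enzyme that starts crosslinks between collagen chains, had 0.586, 0.612 and 0.220 FPKM in WT IR and 1.93, 2.10 and 1.82 FPKM in IR libraries labelled Tet2-/-, with no overlap (log2 fold change 1.98, SE 0.35, edgeR quasi-likelihood adjusted p = 0.0221). Pcolce2, an enhancer of procollagen processing, had 0.861, 0.896 and 0.903 FPKM in WT IR and 1.93, 4.30 and 1.96 FPKM in the libraries labelled Tet2-/- (1.49, SE 0.35, adjusted p = 0.0422). After IR in mice labelled Tet2-/- 2 of 30 rose (12.7% of all genes did), Pcolce2 (1.66, adjusted p = 0.00708) and the lysyl oxidase Loxl4 (2.71, adjusted p = 0.000851), from the same edgeR test, and the chaperone and prolyl hydroxylase genes were not among them. The interaction called Lox (2.59, SE 0.69, adjusted p = 0.0407) and Loxl4 (3.81, SE 0.97, adjusted p = 0.0350) in edgeR. At baseline Lox had 1.11, 1.68 and 0.648 FPKM in WT and 0.268, 1.05 and 0.796 FPKM in libraries labelled Tet2-/-. Loxl4 had 0.433, 3.05 and 0.778 FPKM in WT baseline and 0.232, 0.984 and 0.875 FPKM in WT IR. In the libraries labelled Tet2-/- Loxl4 had 0.257, 0.175 and 0.123 FPKM at baseline and 1.77, 1.56 and 1 FPKM after IR.
Of 10 receptor genes 9 were tested in mice labelled Tet2-/-, and Itga2 and Itgb1 rose while Itga10 fell after IR (12.7% of all genes rose and 11.6% fell), with none of 9 called between genotypes. Itga2 and Itga10, both under 1 FPKM in these mice, are named after their values were seen, to account for the count. Itgb1, the beta chain shared by collagen-binding integrins, had 31.7, 36.8 and 31.3 FPKM at baseline and 95.9, 108 and 99.8 FPKM after IR in these mice (log2 fold change 1.35, SE 0.15, edgeR quasi-likelihood adjusted p = 0.000511), with an interaction of 1.06 (SE 0.24, adjusted p = 0.0240). Of 12 matrix partners Fmod alone was called, lower between genotypes after IR, where 3.85% of all genes were lower, and lower for IR in mice labelled Tet2-/-, where 11.6% were. Fmod, a proteoglycan on collagen fibers, had 4.55, 1.19 and 0.732 FPKM in WT IR and 0.218, 0.324 and 0.119 FPKM in IR libraries labelled Tet2-/- (-3.38, SE 0.74, adjusted p = 0.0361).

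The remaining members were low or did not pass. Col2a1, Col9a1, Col9a2, Col10a1, Col22a1 and Col28a1 passed the filter on low counts in none of the 5 comparisons, Col6a5 passed at baseline and in the interaction, and Col11a1 and Col25a1 did not pass in the genotype comparison after IR. Members not tested in a comparison are not counted in its shares. Col26a1 ranged from 0.529 to 3.55 FPKM and Col16a1 from 0.431 to 2.47 FPKM. Col13a1, a transmembrane collagen whose values are given after they were seen, had 0.212, 0.172 and 0.175 FPKM at baseline and 0.724, 0.484 and 0.261 FPKM after IR in mice labelled Tet2-/-, with no overlap (log2 fold change 1.12, SE 0.40, edgeR quasi-likelihood adjusted p = 0.0564). It was called higher there by DESeq2 (adjusted p = 0.0310), and by edgeR with library sizes alone (adjusted p = 0.0347) and without IR replicate 3 (1.39, adjusted p = 0.0163).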

How the data were processed

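RNA was taken from whole kidney, 1 library per mouse. The authors used STAR for alignment to mm9 and HOMER for counting over RefSeq genes (versions and strand setting are not given in the sources used here). The deposited estimated counts come in steps of 0.5, with 38.7% of values not whole, and were rounded. The deposited FPKM values are the authors' own scaling and were used for levels. Of 34600 transcript rows, the transcript with the highest total was kept for each symbol, and 9 collagen genes had several. With the strand setting unknown, reads of genes that overlap on opposite strands, such as the first bases of Col4a1 and Col4a2, cannot be told apart.

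Counts were tested with edgeR 4.0.16 (TMM, filterByExpr, quasi-likelihood test) within the 6 libraries of a comparison, and over all 12 for the interaction, with Benjamini-Hochberg adjustment over all genes. The interaction was called at an adjusted p under 0.05 alone. SE is the size of the log2 fold change divided by the root of F. Scripts were tested on simulated data. DESeq2 1.42.0 and limma 3.58.1 gave alternatives. P-values set a difference against the spread between libraries of a group, 1 per mouse, which can hold a part shared by same-numbered libraries. Same-numbered libraries deviated together in the IR comparisons, by correlations of 0.349, 0.349 and 0.344 (WT) and of 0.120, 0.350 and 0.202 (labelled Tet2-/-), a pairing taken from the data since baseline and IR kidneys came from different mice.

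Members and lists were chosen with earlier results of these data known. Named genes are Col1a1, Col1a2, Col3a1, Col5a1, Col5a2, type IV, Col15a1, Col18a1, each collagen gene called in any comparison, and of the pathway lists at most 3 called genes per direction and comparison whose mean reached 1 FPKM in a compared group. Genes outside this rule, among them Col27a1, Col13a1, Itga2 and Itga10, were named after their values were seen.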

Additional observations from a re-analysis of the deposited data

Results flagged for a closer look

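The effect of IR differed between the genotypes for 3 of 38 collagen genes by the interaction test of edgeR over all 12 libraries, where 9.18% of all genes were called. The difference in log2 fold change, mice labelled Tet2-/- minus WT, was -2.95 for Col6a6 (adjusted p = 0.000406), -3.55 for Col19a1 (adjusted p = 0.0203) and -2.44 for Col23a1 (adjusted p = 0.0303). Col6a6 passed in all 22 alternatives. Col19a1 was lost in 4 of 21, among them limma on log2(FPKM + 0.1) (-0.79, adjusted p = 0.352). Col23a1 was lost in 9 of 21, among them the fits without WT baseline replicate 1 or 3, baseline replicate 1 labelled Tet2-/-, WT IR replicate 1 and IR replicate 1 or 3 labelled Tet2-/- (adjusted p from edgeR 0.0503 to 0.0694).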

How the results depend on the processing

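Counts and medians are compared with those of the report. Between genotypes after IR, 1 gene was higher with DESeq2, library sizes alone, limma on log2(FPKM + 1), limma on log2(FPKM + 0.1) and all 12 libraries in a single fit, and 2 without a fold threshold. None was lower with limma on log2(FPKM + 1), with genes averaging under 1 FPKM left out, or without replicate 3 of both IR groups (0), a setting chosen after seeing the data. Over all genes in this comparison, limma called 203 higher and 351 lower on log2(FPKM + 1) and 361 and 456 on log2(FPKM + 0.1). The FPKM minimum gave 289 and 537, and the single fit 714 and 879. The type IV median was 0.22 with Col15a1 and Col18a1 added.
For IR in WT mice, 1 gene was higher with DESeq2 and 1 with the replicate block, and 1 was lower with limma on log2(FPKM + 1) and at that FPKM minimum, 4 with the block and 0 with only WT baseline replicate 1 kept. Over all genes in WT mice, limma on log2(FPKM + 1) called 134 higher and 69 lower, and that FPKM minimum 182 and 105. For IR in mice labelled Tet2-/-, 6 were lower with library sizes alone, 2 with limma on log2(FPKM + 1), 4 with limma on log2(FPKM + 0.1) and 4 at that FPKM minimum, and 2 were higher with limma on log2(FPKM + 1) and at that FPKM minimum. Over all genes in these mice, limma called 1433 higher and 810 lower on log2(FPKM + 1) and 2545 and 1245 on log2(FPKM + 0.1). That FPKM minimum gave 1324 and 1356, against 2078 and 1896 in the main fit. The type IV median was -0.13 with library sizes alone, -0.044 with limma on log2(FPKM + 1) and -0.10 with limma on log2(FPKM + 0.1).
In the interaction 1 gene was higher with DESeq2, library sizes alone, limma on log2(FPKM + 1), that FPKM minimum and the block, and 1 was lower with limma on log2(FPKM + 1), limma on log2(FPKM + 0.1), that FPKM minimum and only WT baseline replicate 1 kept, where the type IV median was -0.19. Over all genes in the interaction, limma called 1289 higher and 651 lower on log2(FPKM + 1) and 1029 and 593 on log2(FPKM + 0.1). That FPKM minimum gave 587 and 1010, and the block 821 and 1015. The fibrillar to type IV ratio without the top member of each class was 0.235 in WT baseline, 0.324 in baseline libraries labelled Tet2-/- and 0.347 in WT IR. Apart from fewer genes or samples in a setting, the cause was not tested. Pseudocounts damp low genes by construction.
Leaving out each library in turn gave 2 to 3 lower genes between genotypes after IR, with a type IV median from -0.37 to 0.18, 1 to 2 lower in WT mice, 4 to 5 higher and 7 to 17 lower in mice labelled Tet2-/- with a type IV median from -0.55 to -0.18, and 0 to 1 higher and 2 to 4 lower in the interaction, with a type IV median from -0.057 to 0.39. Over all genes these fits called 65 to 319 higher and 229 to 623 lower between genotypes after IR, against 373 and 623 with all libraries. They called 41 to 365 higher and 37 to 183 lower in WT mice, and 1647 to 2289 and 1607 to 2034 in mice labelled Tet2-/-. The interaction gave 147 to 980 higher and 485 to 1064 lower. Genotype comparisons share only replicate numbers (correlations -0.173, -0.150 and 0.0524 at baseline and -0.000229, 0.206 and 0.303 after IR), and there the replicate block called 0 genes at baseline and 0 higher and 3 lower after IR. Single genes were followed only where the main edgeR fit gave an unadjusted p under 0.05, which held for 55 pairs of gene and comparison. The alternatives use mostly the same libraries, so a kept sign was likely beforehand. Of 881 values of these pairs under the alternatives, 792 kept their call and direction, 63 lost and 26 gained a call, and none changed sign. A kept call includes a pair that stayed uncalled. Low counts limit Col25a1 and Col17a1.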
